A study of Mus musculus with 50 samples.

Results

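A group of 10 genes that encode neuronal regulators of alternative splicing was followed through development of the mouse frontal cortex: Ptbp1, Ptbp2, Rbfox1, Rbfox2, Rbfox3, Nova1, Nova2, Srrm4, Elavl2 and Celf4. They were chosen as a list by name and found in the files through the GENCODE vM21 annotation, and they are 10 of 55487 genes in the files and 10 of 21897 protein-coding genes. All 10 passed the filter on low counts, which kept 16330 protein-coding genes, and each of them had between 1127 and 31144 counts in every library. Bulk RNA of frontal cortex was compared between mice with 2 wild-type Setd1a alleles (wild-type) and mice with 1 loss-of-function allele (Setd1a+/-) at embryonic days 14 and 18 (E14, E18) and postnatal days 7, 35 and 70 (P7, P35, P70). There were 5 libraries of each genotype at each age, 50 in all. Setd1a encodes a histone H3 lysine 4 methyltransferase. The allele, named tm1d, came from a knockout-first design. Heterozygous males had been bred to wild-type females and only male offspring were to be used. The labels name the strain C57BL/6NTac for every sample, while the study's methods give a mixed background of C57BL/6NTac and C57BL/6J. In embryos the dissected tissue was the frontal part of the brain, and RNA came from a portion of the whole homogenate.

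Alternative splicing joins exons of a gene in different combinations, and RNA-binding proteins decide which exons a neuron keeps. Ptbp1 is known as a repressor of neuronal exons in progenitors and non-neuronal cells, and its paralogue Ptbp2 replaces it as neurons are born. Srrm4 promotes neuronal microexons, and the Rbfox, Nova, Elavl and Celf proteins bind short motifs in introns and 3′ ends and favour or block exons according to where they bind. The counts used here are totals over the exons of each gene, so they measure the amount of each regulator's mRNA and not the splicing of its targets.

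The repressors Ptbp1 and Ptbp2 share a 34-base exon, shown because its skipping in Ptbp2 when Ptbp1 is abundant is the textbook link between the paralogues. In GRCm38 the Ptbp1 exon is number 9 at chr10:79862014-79862047 on the plus strand, and the Ptbp2 exon is number 10 at chr3:119724612-119724645 on the minus strand. The sequences were read 5′ to 3′ from the GENCODE vM21 transcripts, 26 of the 34 positions are identical, and capitals mark the positions that differ.
Ptbp1 exon 9: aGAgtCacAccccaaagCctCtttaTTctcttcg
Ptbp2 exon 10: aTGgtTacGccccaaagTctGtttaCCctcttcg
Of the annotated transcripts that span the exon without it, 2 of 2 for Ptbp1 and 2 of 3 for Ptbp2 are annotated as targets of nonsense-mediated decay. Reads of either form were counted for the gene.

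Promoter sequences from RefSeq (GRCm38.p6) were matched by symbol for 8 of the 10 genes, in 14 windows that run from 250 bases before to 50 bases after a start. The dinucleotide CG, counted on the strand shown, was found 22 times in the window of Ptbp1, 25 times in that of Srrm4, 36 times in that of Ptbp2, 17 times in that of Nova2, 14 times in that of Nova1 and 10 to 27 times in the 6 windows of Elavl2. It was found 4 times in the window of Rbfox3 and 3 and 7 times in the windows of Rbfox1, beside a median of 7 over all 32851 windows in the table. The 250 bases before the start are shown for 2 genes that were highest at E14 and 1 that was highest in the adult, with each CG in capitals.
Ptbp1, chr10:79854182-79854431, plus strand: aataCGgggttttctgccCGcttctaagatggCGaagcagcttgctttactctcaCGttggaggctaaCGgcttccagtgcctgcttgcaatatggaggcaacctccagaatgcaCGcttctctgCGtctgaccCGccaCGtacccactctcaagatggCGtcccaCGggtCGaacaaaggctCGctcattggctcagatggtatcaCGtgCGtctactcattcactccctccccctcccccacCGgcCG
Srrm4, chr5:116591818-116592067, minus strand: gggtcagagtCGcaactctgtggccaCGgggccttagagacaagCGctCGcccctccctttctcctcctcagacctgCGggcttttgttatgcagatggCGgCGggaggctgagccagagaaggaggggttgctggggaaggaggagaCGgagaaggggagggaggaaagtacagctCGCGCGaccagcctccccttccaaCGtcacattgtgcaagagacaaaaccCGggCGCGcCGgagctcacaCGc
Rbfox3, chr11:118761042-118761291, minus strand: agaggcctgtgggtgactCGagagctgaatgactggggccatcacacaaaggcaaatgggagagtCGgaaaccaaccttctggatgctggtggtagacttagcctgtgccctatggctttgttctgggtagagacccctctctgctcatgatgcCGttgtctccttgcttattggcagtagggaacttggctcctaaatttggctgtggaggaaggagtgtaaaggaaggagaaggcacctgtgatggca
In these 250 bases CG was counted 17 times for Ptbp1, 17 times for Srrm4 and 3 times for Rbfox3, and 23.5%, 23.5% and 71.0% of all windows held as many or more. The start of the Rbfox3 window, the only one of that gene in the table, lies inside the gene as GENCODE vM21 gives it and not at its outer end, so that its count of CG is that of an internal start. The starts of the Ptbp2 and Nova1 windows also lie inside their genes, and internal starts are among those of Rbfox1 and Elavl2. The counts of CG are a description of these windows and say nothing of how the genes are controlled.

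Library totals ran from 35507165 to 43907318 counts, and no libraries held identical counts. The counts of Setd1a, summed over all its exons, were a little higher in the libraries labelled Setd1a+/- (log2 fold change 0.10, SE 0.03, adjusted p = 0.0067 by edgeR with age as a covariate), and such totals do not resolve the altered allele, so genotypes are as the labels give them. The wild-type library E14 replicate 5 and the wild-type library E18 replicate 2 had 55644 or more Xist counts and no more than 11 for 4 genes of the Y chromosome together, while the other 48 had up to 27 for Xist and no fewer than 4711 for the Y chromosome genes. At P7 the wild-type library of replicate 2 stood apart in markers of other brain regions, described below. The calls of regulators that changed without them are given both ways. Of the markers of cortical neurons, Tbr1 was at 8.99 RPKM (reads per kilobase of exon in a scaled library) or more and Neurod6 at 26.1 RPKM or more in every library.

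Levels are given as reads per kilobase of exon scaled to a common library size by TMM (RPKM), computed from the deposited counts, as mean ± SD over 5 libraries. Each age was compared with the next by the quasi-likelihood method of edgeR, p-values were adjusted by Benjamini and Hochberg's method over all 16330 genes, and the threshold was 0.05. Replicates are the separate samples of a group, and p-values measure the spread between them. By the study's methods littermates were used at the postnatal ages, and shared litters were not taken into account. The tissue is a mixture of cells, so fewer cells of a type and less RNA per cell cannot be told apart. In wild-type cortex the steps from E14 to E18, E18 to P7 and P7 to P35 called 65.9%, 67.3% and 67.0% of all tested genes, and the step from P35 to P70 called 1.06%. Of the 10 regulators, 7, 8, 8 and 0 were called in these steps, counts to be read against those shares. In the first 3 steps 3, 2 and 2 regulators rose, beside 31.8%, 33.9% and 32.6% of all tested genes, and 4, 6 and 6 fell, beside 34.1%, 33.4% and 34.3%. Their median log2 fold changes were -0.12, -0.33, -0.49 and 0.00, beside -0.01, 0.00, -0.01 and 0.00 over all tested genes. In Setd1a+/- cortex the steps called 64.6%, 67.8%, 67.8% and 2.98% of all tested genes, and 8, 8, 9 and 0 of the regulators. The markers of neurons, progenitors and glia moved over the same ages. Of 7 neuron markers 6, 4 and 3 rose and 0, 1 and 4 fell in the first 3 wild-type steps. Of 6 astrocyte markers 6, 5 and 2 rose and 0, 0 and 2 fell, and of 5 oligodendrocyte markers 1, 4 and 5 rose and 0, 1 and 0 fell. Summed counts per library scaled to a common size (CPM) of 9 progenitor markers went from between 1742 and 2516 at E14 to between 120.1 and 161 at P70, and 9, 6 and 7 of them fell in the first 3 steps. The part of cell composition in the changes of the regulators was not tested.

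Ptbp1 and Ptbp2, the exon repressors, were high in the embryo and fell through development in both genotypes. Ptbp1 (chr10:79854427-79864771, plus strand, protein-coding) stood at 39.5, 35.8, 42.3, 42 and 51.5 RPKM in the 5 wild-type libraries at E14. It was at 20.9, 21.5, 21.9, 19.7 and 21 RPKM at E18, and at 7.01, 7.27, 8.12, 8.83 and 7.49 RPKM at P70. Every library at E14 was above every library at E18, and the mean at E14 was 5.45 times that at P70 in wild-type and 5.99 times in Setd1a+/- cortex. The wild-type log2 fold changes of Ptbp1 were -1.01 (SE 0.09, adjusted p = 6.5e-13) from E14 to E18, -0.75 (SE 0.09) from E18 to P7 and -0.70 (SE 0.09) from P7 to P35. From P35 to P70 the log2 fold change was 0.02 (SE 0.09). With all libraries Ptbp1 from E14 to E18 was 1 of 2 wild-type steps of the regulators that were called and at least 2-fold, a rule that called 16.4%, 15.9% and 19.2% of all tested genes in the first 3 steps. It was still called but under 2-fold without E14 replicate 5 (-0.92, SE 0.09) and without the 3 libraries in doubt (-0.93, SE 0.07). In the 20.7% of its exonic bases that lie over exons of genes on the opposite strand, the protein-coding Plppr3 among them, reads of either strand were counted, so that they cannot be told apart. Plppr3 was itself at 110 RPKM at E14 and at 18.1 RPKM at P70 in wild-type cortex.

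Ptbp2 (chr3:119718742-119784466, minus strand) started near the level of Ptbp1 on the RPKM scale and fell less. The 5 wild-type libraries held 33.8, 32.5, 36.5, 37.8 and 37 RPKM at E14, 15.1, 15.2, 15.4, 15.5 and 16 RPKM at P7, and 9.55, 9.25, 9.12, 10.2 and 10.9 RPKM at P70. The groups at E14, P7 and P70 did not overlap, and the mean at E14 was 3.62 times that at P70. Ptbp2 fell by 0.45, 0.75 and 0.56 on the log2 scale in the first 3 wild-type steps (SE 0.06 each), and its log2 fold change from P35 to P70 was -0.10 (SE 0.06, adjusted p = 0.59). In Setd1a+/- cortex it fell by 0.33, 0.73 and 0.59 in the same steps.

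The ratio of the paralogues within a library compares Ptbp2 with Ptbp1 on the RPKM scale. In wild-type cortex Ptbp1 made up 54.2% ± 2.3 (SD, n = 5) of the summed RPKM of the pair at E14 and 44.9% ± 1.8 at E18, and the share at P70 was 44.1% ± 2.7. The log2 ratio was -0.24 ± 0.14 at E14 and 0.30 ± 0.10 at E18, a change of 0.54 (exact permutation test, two-sided, p = 0.0079, adjusted p = 0.018 over 16 tests by age). The value 0.0079 is the smallest that 5 libraries against 5 allow. The call was lost without the 2 libraries with Xist counts, 1 at each of these ages, where the change was 0.46 (adjusted p = 0.065). The groups still did not overlap, so p was the smallest that the fewer libraries allow. The lost call therefore cannot decide whether the ratio changed. No later step of this ratio passed the test, with changes of 0.04, 0.12 and -0.11. The first 2 of these changes include P7 replicate 2, whose log2 ratio was -0.226 beside 0.366 to 0.554 in the other wild-type libraries. So the sum of both repressors went on falling, from 77.7 to 17.5 RPKM between E14 and P70, while their ratio was on the side of Ptbp2 in all wild-type libraries after E14 but P7 replicate 2. The RPKM of Ptbp1 includes the bases shared with genes on the opposite strand, and where the ratio would cross 0 without them was not tested. The side of 0 also rests on the annotated exonic bases, 9175 for Ptbp2 and 4740 for Ptbp1. In raw counts Ptbp2 was above Ptbp1 in every library at E14, for example 10552 beside 6368 in wild-type replicate 1.

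Srrm4 (chr5:116439275-116591817, minus strand), the activator of microexons, was also highest in the embryo. Its wild-type libraries held 24.7, 29.3, 31.0, 26.1 and 21.7 RPKM at E14, 18.2, 17.9, 15.2, 13 and 18.3 RPKM at E18, and 5.99, 5.60, 6.49, 5.66 and 5.85 RPKM at P70. The mean at E14 was 4.49 times that at P70, and the E14 and E18 libraries did not overlap. The wild-type log2 fold changes of Srrm4 were -0.69, -0.82 and -0.53 in the first 3 steps (SE 0.11 each, adjusted p = 3.6e-05 or lower) and -0.14 from P35 to P70 (SE 0.11, adjusted p = 0.70). Rest, the repressor of neuronal genes whose own transcript is a target of Srrm4, was at 4.26 ± 0.44 RPKM at E14 and fell to 0.81 ± 0.15 RPKM at P70, with wild-type log2 fold changes of -0.72, -1.01 and -0.43 in the first 3 steps. Rest and Srrm4 thus both fell in each of these 3 steps.

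**Figure D1:**
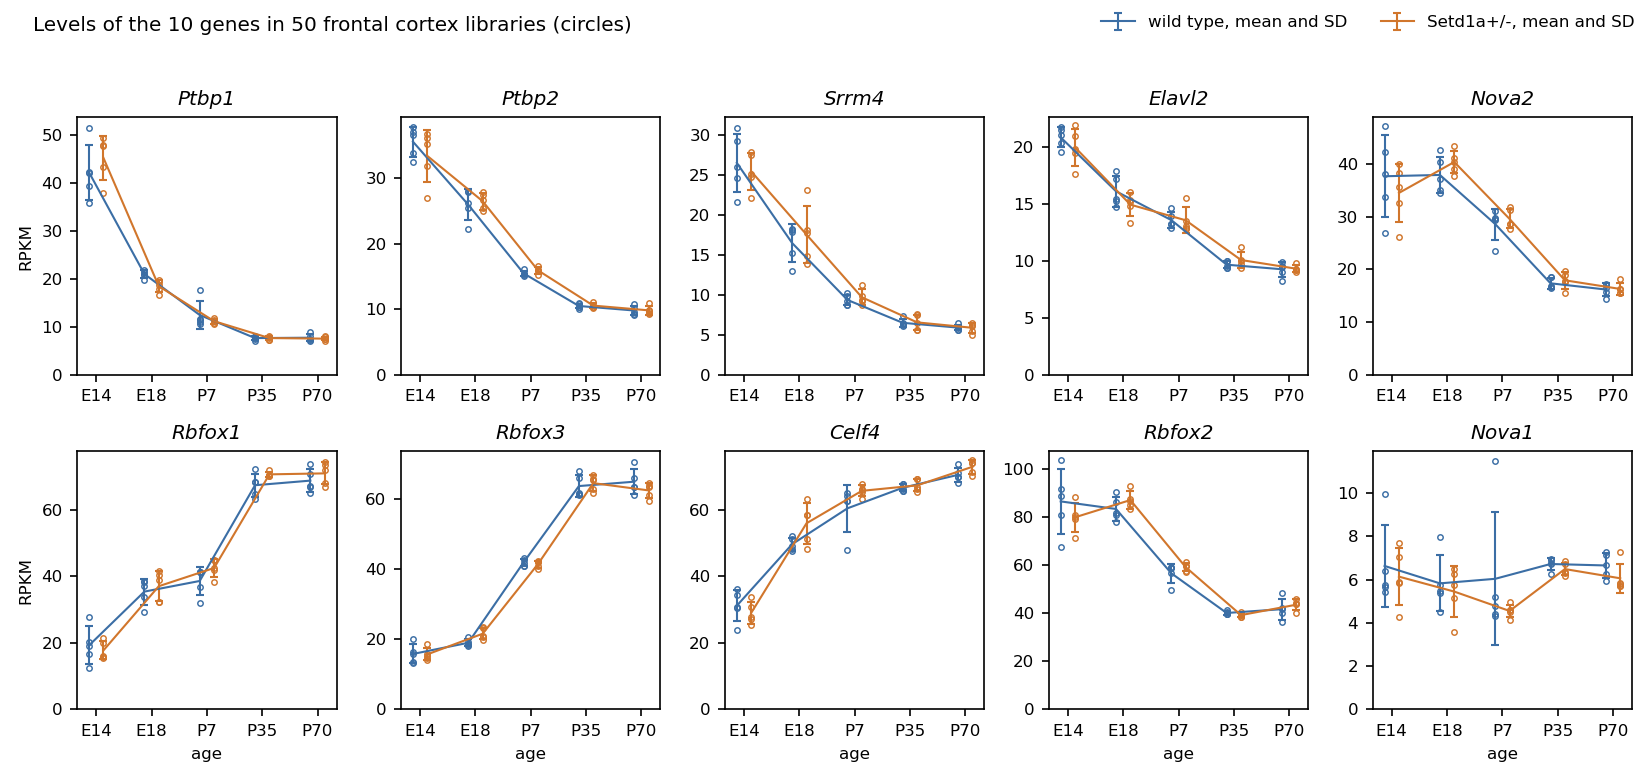
Level in RPKM (vertical axes, linear and from 0) of each regulator at E14, E18, P7, P35 and P70, with circles for single libraries and lines with bars for the mean and SD of 5 wild-type (blue) and 5 Setd1a+/- (orange) libraries. Ptbp1, Ptbp2, Srrm4, Elavl2, Nova2 and Rbfox2 end lower than they begin, Rbfox1, Rbfox3 and Celf4 end higher, and the wild-type group means of Nova1 lie between 5.82 and 6.72 RPKM with all libraries (4.67 RPKM at P7 without replicate 2).

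On the RPKM scale the Rbfox family changed its main member with age. These 3 proteins bind the same motif, and Rbfox3 is also known as the neuronal marker NeuN. Rbfox2 (chr15:77078990-77307004, minus strand) was the highest of the 10 regulators at E14 with 86.3 ± 13.5 RPKM and was at 41.5 ± 4.3 RPKM at P70. Its wild-type libraries held 88.4, 103.7, 91.5, 80.7 and 67.3 RPKM at E14 and 41.8, 41.5, 48.2, 36.1 and 40.03 RPKM at P70, and these did not overlap. Rbfox2 fell by 0.56 from E18 to P7 and by 0.50 from P7 to P35 (SE 0.07 each), while its log2 fold change from E14 to E18 was -0.05 (SE 0.07, adjusted p = 0.50). That step was -0.13 (adjusted p = 0.061) without E14 replicate 5 and was called without the 3 libraries in doubt, with -0.14 (SE 0.06, adjusted p = 0.040). In Setd1a+/- cortex the same step was 0.12 (SE 0.07, adjusted p = 0.11) with all libraries and 0.13 (SE 0.06, adjusted p = 0.044) without the 3.

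Rbfox1 (chr16:5885355-7411526, plus strand) rose in 2 separate steps. Its wild-type libraries held 16.5, 27.8, 20.3, 18.9 and 12.4 RPKM at E14, 33.6, 37, 38.6, 29.3 and 38.4 RPKM at E18, 36.8, 32.1, 41.4, 41.3 and 41.3 RPKM at P7, and 68.4, 72.2, 64.9, 63.1 and 68.3 RPKM at P35. The groups at E18 and P7 overlapped, as did those at P35 and P70, while E14 did not overlap with E18 nor P7 with P35. Rbfox1 rose by 0.88 (SE 0.11) from E14 to E18 and by 0.81 (SE 0.11) from P7 to P35, and its log2 fold change was 0.12 (SE 0.11, adjusted p = 0.33) from E18 to P7. At P70 it was 3.59 times its level at E14 in wild-type and 4.02 times in Setd1a+/- cortex.

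Rbfox3 (chr11:118489762-118911597, minus strand) rose most after birth. Its wild-type libraries held 18, 18.6, 19.2, 18.4 and 20.5 RPKM at E18 and 40.8, 41.0, 43.2, 41.9 and 42.6 RPKM at P7, with no library between 20.5 and 40.8 RPKM. The log2 fold change from E18 to P7 was 1.15 (SE 0.07, adjusted p = 1.2e-18) and past the 2-fold rule. Rbfox3 also rose by 0.27 (SE 0.07) from E14 to E18 and by 0.60 (SE 0.07) from P7 to P35, and at P70 it was 4.13 times its level at E14.

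In the sum of the 3 Rbfox genes, Rbfox2 held 71.4% ± 1.7 (SD, n = 5) in wild-type cortex at E14. This share was 60.5% ± 1.4 at E18 and 41.2% ± 1.1 at P7, and 23.4% ± 0.97 at P35. The shares of Rbfox1 and Rbfox3 at P70 were 39.3% ± 0.88 and 37.1% ± 1.0, and the summed level went from 121 ± 21.3 RPKM at E14 to 175 ± 10.8 RPKM at P70. The log2 ratio of Rbfox1 to Rbfox2 rose by 0.97, 0.69 and 1.31 in the first 3 steps and that of Rbfox3 to Rbfox2 by 0.32, 1.71 and 1.10. All 6 steps separated the groups with no overlap (exact permutation test, adjusted p = 0.018 each). Without the 2 libraries with Xist counts the steps from E14 to E18 were 0.90 and 0.38 (adjusted p = 0.065 each). Without the 3 libraries in doubt these and the steps from E18 to P7, at 0.71 and 1.65, had an adjusted p of 0.057. The groups still did not overlap in these fits, so p was again the smallest that the fewer libraries allow. On the RPKM scale Rbfox2 was above both paralogues in every library at E14, E18 and P7. It was below both in every library at P35 and P70. This order and the shares rest on the annotated exonic bases, 8140 for Rbfox2, 4400 for Rbfox1 and 5818 for Rbfox3. In raw counts Rbfox2 stayed above Rbfox1 in every wild-type library at P35 and P70, for example 11008 beside 10326 in P35 replicate 1. Changes of the log2 ratios between ages do not depend on these lengths.

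**Figure D2:**
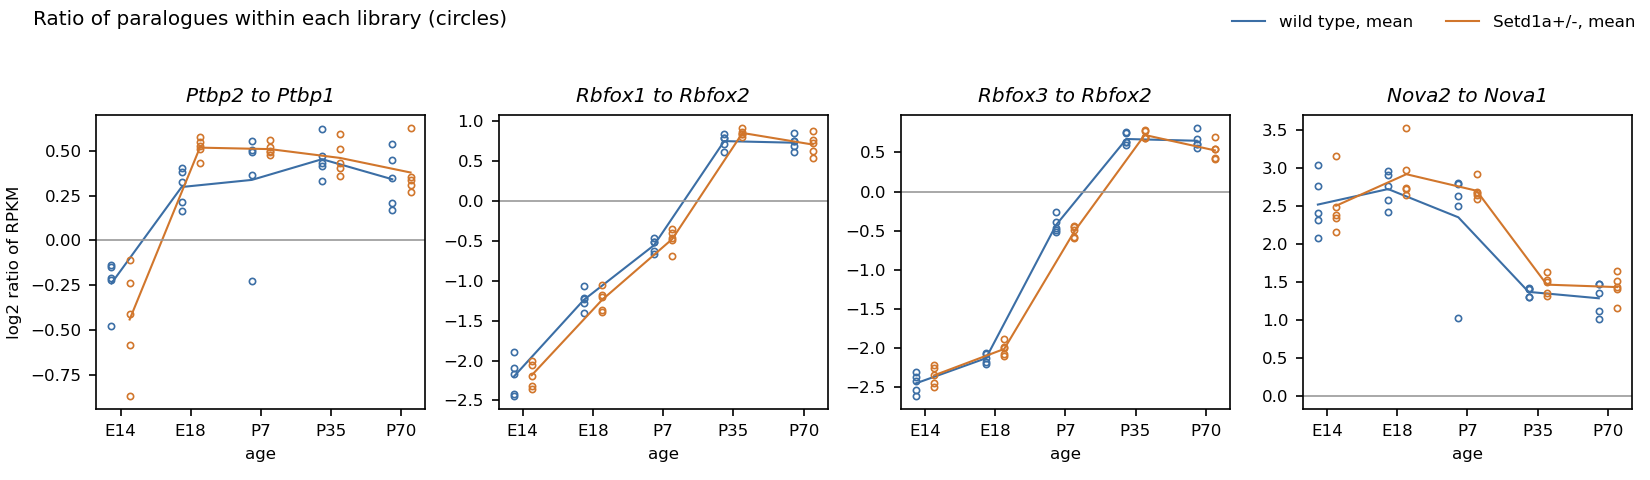
Log2 ratio of the RPKM of paralogues within each library (vertical axes) against age, with circles for single wild-type (blue) and Setd1a+/- (orange) libraries and lines through the means of 5. A ratio of 0 means equal RPKM, so where a ratio crosses 0 rests on the annotated exonic bases of both genes. The Rbfox ratios cross it between P7 and P35. The ratio of Ptbp2 to Ptbp1 (with the bases Ptbp1 shares with opposite-strand genes) crosses it between E14 and E18. P7 wild-type replicate 2 lies at -0.23 in the first panel and at 1.03 in the last.

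The Nova proteins, which bind clusters of YCAY motifs, differed from each other. Nova2 (chr7:18925888-18965319, plus strand) was at 42.2, 47.2, 38.2, 33.8 and 27 RPKM at E14, at 37.9 ± 3.5 RPKM at E18 and at 17.3, 16.5, 17.1, 15.7 and 14.4 RPKM at P70 in wild-type libraries. It fell by 0.41 from E18 to P7 and by 0.72 from P7 to P35 (SE 0.10 each). From E14 to E18 its log2 fold change was 0.01 (SE 0.10) in wild-type cortex, while in Setd1a+/- cortex it rose by 0.23 (SE 0.10, adjusted p = 0.038). That call was lost in 5 of the 10 fits that left out 1 of the libraries compared, with 0.19 (adjusted p = 0.15) with RNA integrity as a covariate, and the interaction of age and genotype for Nova2 had an adjusted p of 1.00.

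Nova1 (chr12:46694517-46818929, minus strand) was the regulator with no called step in wild-type cortex. Its group means lay between 5.82 and 6.72 RPKM with all libraries, but without replicate 2 the mean at P7 was 4.67 RPKM and the step from E18 to P7 was -0.32 (SE 0.15, adjusted p = 0.056) in place of 0.05 (SE 0.18). Without the 3 libraries in doubt that step was called, with -0.35 (SE 0.16, adjusted p = 0.048). With all libraries the levels at E14 and P70 were 1.00 times each other. The wild-type libraries at P7 held 4.78, 11.5, 4.29, 5.17 and 4.43 RPKM, and those at P35 held 6.91, 6.95, 6.72, 6.24 and 6.78 RPKM. Only replicate 2 at P7 was above the libraries at P35. Without this library Nova1 rose by 0.53 (SE 0.15, adjusted p = 0.0021) from P7 to P35, and in Setd1a+/- cortex, which it does not enter, Nova1 rose by 0.51 (SE 0.19, adjusted p = 0.013) in the same step. The log2 ratio of Nova2 to Nova1 changed by -0.98 from P7 to P35 with all libraries (exact permutation test, adjusted p = 0.095) and by -1.31 without P7 replicate 2 (adjusted p = 0.016).

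Elavl2 (chr4:91250763-91400785, minus strand), a neuronal protein that binds AU-rich RNA, fell in small steps. It was at 19.6, 21.1, 20.3, 21.5 and 21.7 RPKM at E14 and at 9.50, 8.28, 9.93, 9.03 and 9.57 RPKM at P70 in wild-type libraries, 2.25 times lower at the end. Elavl2 fell by 0.37, 0.25 and 0.49 in the first 3 wild-type steps (SE 0.06 each). In Setd1a+/- cortex its step from E18 to P7 was -0.14 (SE 0.06, adjusted p = 0.033), and DESeq2 gave -0.10 (adjusted p = 0.13). The call was also lost with at least 10 CPM in 5 libraries (-0.10, adjusted p = 0.11). It was lost without Setd1a+/- replicate 1 or 2 at E18, or 2, 4 or 5 at P7 (adjusted p 0.059 to 0.090).

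Celf4 (chr18:25477632-25754157, minus strand), which binds neuronal 3′ UTRs as well as introns, had its largest log2 step before birth. Its wild-type libraries held 34.4, 36, 30.9, 30.4 and 23.9 RPKM at E14, 51.2, 49.1, 48.2, 52.1 and 47.8 RPKM at E18, and 73.9, 68.0, 71.1, 69.9 and 69.97 RPKM at P70. Every library at E18 was above every library at E14. Celf4 rose by 0.67 (SE 0.08) from E14 to E18 and by 0.28 (SE 0.08) from E18 to P7, and its log2 fold change from P7 to P35 was 0.14 (SE 0.08, adjusted p = 0.095). The last value was 0.07 (adjusted p = 0.42) without P7 replicate 2, the library low in Celf4, and 0.16 (adjusted p = 0.039) when only genes with at least 10 CPM in 5 libraries were tested.

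In Setd1a+/- cortex 8 of the 10 regulators had as many called rises and falls as in wild-type cortex. The exceptions were Nova1 and Nova2 with 1 called rise each, given above. The 8 include Elavl2, whose call from E18 to P7 depended on the fit. How many of all tested genes had as many in both genotypes was not counted. Rbfox2 had estimates of opposite sign from E14 to E18, also given above. From E14 to E18 Ptbp1 fell by 1.29 (SE 0.09), Celf4 rose by 0.95 (SE 0.08), Rbfox1 by 1.07 (SE 0.11) and Rbfox3 by 0.46 (SE 0.07). From E18 to P7 Rbfox3 rose by 0.94 (SE 0.07), Celf4 by 0.23 (SE 0.08), and Ptbp1 fell by 0.72 (SE 0.09). Rbfox2 fell by 0.56 and then by 0.59 (SE 0.07 each) in the steps from E18 to P7 and from P7 to P35. Srrm4 was at 25.5 ± 2.3 RPKM at E14 and 5.90 ± 0.59 RPKM at P70. No regulator passed the test of the interaction of genotype and age (lowest adjusted p = 0.88), which does not show that the courses were alike.

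The order of the levels, on the RPKM scale, was turned over between the embryo and the adult. At E14 in wild-type cortex Rbfox2 came first, then Ptbp1, Nova2, Ptbp2, Celf4 and Srrm4, then Elavl2, Rbfox1 and Rbfox3, and Nova1 last. At P70 Celf4, Rbfox1 and Rbfox3 came first with 70.6, 68.8 and 65.0 RPKM, then Rbfox2, Nova2, Ptbp2, Elavl2, Ptbp1, Nova1 and Srrm4. Neighbours from Ptbp1 to Srrm4 and from Elavl2 to Rbfox3 at E14, and among the first 3 and the last 5 at P70, had libraries that overlapped and were not told apart by their spread.

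The question of the design was whether loss of 1 Setd1a allele changed these genes. No regulator was called between genotypes, whether age was a covariate, at any age, or in the interaction of age and genotype. With age as a covariate, edgeR called 4.43% of all tested genes (723) and 0 of the 10 regulators, and 0 of them had an unadjusted p under 0.05, beside 14.5% of all genes. limma-voom and DESeq2 also called 0 of the 10, beside 753 and 823 of all genes. The 10 log2 fold changes lay between -0.16 and 0.05, and their 95% intervals between -0.32 and 0.14. These intervals leave out differences of more than 0.14 on the log2 scale for 9 regulators at the mean over ages, and for Nova1 they reach -0.32.

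Single ages gave wider intervals. The tests at E14, E18, P7, P35 and P70 called 0.129%, 0.11%, 0.735%, 0.0% and 0.233% of all tested genes and 0 of the 10 regulators at each age, and the joint test of the 4 interaction terms called 0.0% of all genes. The lowest unadjusted p of a regulator in the interaction was 0.12 (Celf4, adjusted p = 0.88), and DESeq2 called 21 of all genes there and 0 regulators. Over the 50 combinations of regulator and age, the log2 fold change lay between -0.41 and 0.18, and 4 (8.0%) had an unadjusted p under 0.05, beside 8.36% over all genes. In 0 of the 50 combinations did the genotypes separate without overlap in CPM. The share of all tested genes that did so was not counted, so this 0 is not a result about the regulators.

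Of these 4, 3 were at E18, where 11.4% of all tested genes had an unadjusted p under 0.05, and 1, Nova1, at P7, where 8.87% did. Rbfox3 was at 18, 18.6, 19.2, 18.4 and 20.5 RPKM in wild-type and at 19.7, 23.1, 20.9, 20.6 and 23.4 RPKM in Setd1a+/- libraries, a log2 fold change of 0.18 (SE 0.07, 95% interval 0.05 to 0.32, adjusted p = 0.27). Ptbp1 was at 20.9, 21.5, 21.9, 19.7 and 21 RPKM in wild-type and at 19.8, 19.4, 16.7, 17.8 and 18.7 RPKM in Setd1a+/- libraries, with -0.19 (SE 0.09, adjusted p = 0.42). Celf4 had 0.17 (SE 0.08, adjusted p = 0.36), with Setd1a+/- libraries at 58.5, 58.5, 63.4, 48.3 and 51.1 RPKM. The groups overlapped for all 3, for Ptbp1 only between 19.7 and 19.8 RPKM. With RNA integrity as a covariate the differences were 0.13 for Rbfox3, -0.14 for Ptbp1 and 0.11 for Celf4. Summed CPM of the 9 progenitor markers was between 703 and 788 in wild-type and between 563 and 747 in Setd1a+/- libraries at E18, with 0 of the 9 called. That of the 3 choroid plexus markers was between 1.10 and 227 in wild-type and between 0.33 and 1.70 in Setd1a+/- libraries (log2 fold changes -6.91 to -3.71, lowest adjusted p = 0.083). That of the 3 endothelial markers was between 110 and 245 and between 93.6 and 127 (log2 fold changes -0.92 to -0.09). The 7 neuron markers had log2 fold changes of 0.01 to 0.12, and 0 markers of any list were called at E18. The part of these in the differences was not tested.

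The within-library ratio of Ptbp2 to Ptbp1 at E18 was the measure on which the genotypes separated. Its log2 value was between 0.17 and 0.41 in wild-type and between 0.43 and 0.57 in Setd1a+/- libraries, a difference of 0.22 (exact permutation test, p = 0.0079, the smallest possible). Adjusted over the 24 tests of 4 ratios by genotype it gave 0.19. A lone ratio at the smallest possible p cannot pass this adjustment, so the test could not decide whether this ratio differed. At E14 the difference of the same ratio was -0.20 (adjusted p = 0.52), and over all ages it was 0.05 (adjusted p = 0.56). No other ratio passed over all ages. None passed at a single age either, but there the same limit held for a lone ratio.

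With all libraries the values lay closest together in the oldest groups, but without wild-type replicate 2 those at P7 lay between -0.04 and 0.08. The 10 log2 fold changes were between -0.05 and 0.07 at P35 and between -0.14 and 0.06 at P70, and DESeq2 called 11 of all genes and 0 regulators at P35. Ptbp1 had 0.00 (SE 0.09) at P35 and -0.04 (SE 0.09) at P70, and Rbfox3 had 0.02 and -0.06 (SE 0.07 each). Over all ages Celf4 had 0.05 (SE 0.03, 95% interval -0.02 to 0.12), Rbfox1 0.04 (SE 0.05) and Ptbp1 -0.06 (SE 0.04, 95% interval -0.14 to 0.03). Without the 3 libraries in doubt they were nearer to 0, with 0.02 (SE 0.03) for Celf4, 0.01 (SE 0.04) for Rbfox1 and -0.01 (SE 0.03) for Ptbp1. Leaving out P7 replicate 2 alone gave -0.02 for Ptbp1, and leaving out E14 replicate 5 alone gave 0.02 for Rbfox1.

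At E14 the sizes of the differences moved with the wild-type library of replicate 5, one of those with Xist counts, while 0 regulators were called with any 1 library left out. It was the lowest of the 5 wild-type libraries for 6 regulators and the highest for 2, shares not counted over all tested genes. It held 67.3 RPKM of Rbfox2 beside 80.7 to 103.7 in the other wild-type libraries and 51.5 RPKM of Ptbp1 beside 35.8 to 42.3. With all libraries the log2 fold changes at E14 were -0.11 (SE 0.07, adjusted p = 0.56) for Rbfox2 and -0.10 (SE 0.08, adjusted p = 0.66) for Celf4. Without replicate 5 they were -0.19 for each (adjusted p = 0.059 and 0.10), and 4.56% of all tested genes were called at E14. Without the 3 libraries in doubt both passed the threshold, Rbfox2 with -0.19 (SE 0.06, adjusted p = 0.038) and Celf4 with -0.19 (SE 0.06, adjusted p = 0.047), where 7.11% of all genes were called. Cell markers moved with these calls. Without the 3 libraries all 7 neuron markers were lower in Setd1a+/- (-0.25 to -0.13, median -0.20, 2 of 7 called), and all 3 endothelial markers were called higher (0.62 to 1.07). Of the 9 progenitor markers 1 was lower and 1 was called higher (-0.09 to 0.40, median 0.17), and 1 of 6 astrocyte markers and 1 of 2 oligodendrocyte precursor markers were called higher. With all libraries the 7 neuron markers lay between -0.13 and -0.05 and the endothelial markers between 0.62 and 1.01, with 0 called. Summed CPM of the neuron markers at E14 was 3540.0 in wild-type replicate 5, between 4396 and 5323 in the other wild-type libraries and between 3813 and 4658 in Setd1a+/- libraries. That of the endothelial markers was 346 and 121 in Setd1a+/- replicates 2 and 4 and at most 87.1 in the other 8 libraries. The part of cell composition in the differences of Rbfox2 and Celf4 was not tested. No other regulator was called at E14 in these fits. Without the 3 libraries Rbfox1 went from -0.12 to -0.24 (adjusted p = 0.11) and Nova2 from -0.13 to -0.23 (adjusted p = 0.089). Ptbp1 had 0.18 (SE 0.06, adjusted p = 0.069) without the 3 libraries.

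**Figure D3:**
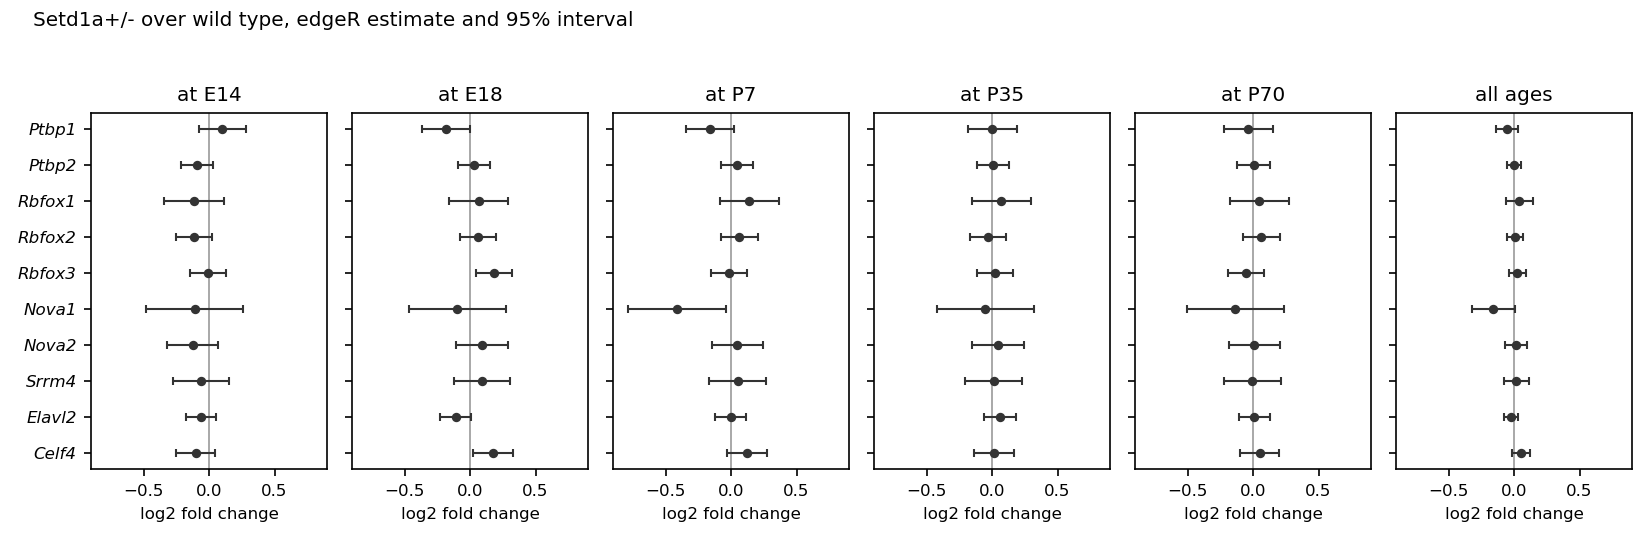
Log2 fold change of Setd1a+/- over wild-type for each regulator (points) with its 95% interval (bars), from edgeR at each of 5 ages and, in the last panel, over all ages with age as a covariate. The points lie between -0.41 and 0.18 at single ages, and the interval that reaches farthest from 0 is that of Nova1 at P7, which rests on 1 library.

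At P7 the difference of Nova1 rests on wild-type replicate 2. With all libraries the log2 fold change was -0.41 (SE 0.19, 95% interval -0.78 to -0.04, adjusted p = 0.47), and without that library it was -0.04 (SE 0.15). For Ptbp1 the values at P7 were -0.16 (SE 0.09) with it and 0.00 (SE 0.07) without it, and the calls among all genes at P7 went from 120 to 7 (0.0427%). Over all ages Nova1 had -0.16 (SE 0.08, adjusted p = 0.36) with all libraries and -0.09 (adjusted p = 0.60) without this one. Nova1 was lower in Setd1a+/- at 5 of 5 ages by these estimates, and at none of them did it pass the test.

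This P7 library was outside the range of the other 9 in 6 of the 10 regulators, a share not counted over all tested genes. It held 17.8 RPKM of Ptbp1 beside 10.5 to 11.8 in the others and 11.5 RPKM of Nova1 beside 4.11 to 5.17. It was below all others for Celf4 (47.9 RPKM beside 62.6 to 67.9), Nova2 (23.5 beside 27.7 to 31.8), Rbfox2 (49.3 beside 56.8 to 61.3) and Rbfox1 (32.1 beside 36.8 to 45.0). Ptbp2, Rbfox3, Srrm4 and Elavl2 were within the range of the others. The library also held 504 RPKM of Ttr, a choroid plexus gene, beside at most 0.44, and 5.66 RPKM of Tcf7l2, a thalamic gene, beside at most 0.54. The cortical genes Tbr1 and Neurod6 were at 8.99 RPKM beside 22.7 to 27.5 and at 30.6 RPKM beside 71.2 to 102.01 in the others. Summed CPM of its neuron markers was 4989 beside 6710.0 to 7209, that of its oligodendrocyte markers 1278 beside 117 to 174.5, and that of its hindbrain Hox genes 8.80 beside at most 0.34. These are values that moved with the levels of the regulators in 1 library, and their part in them was not tested.

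**Figure D4:**
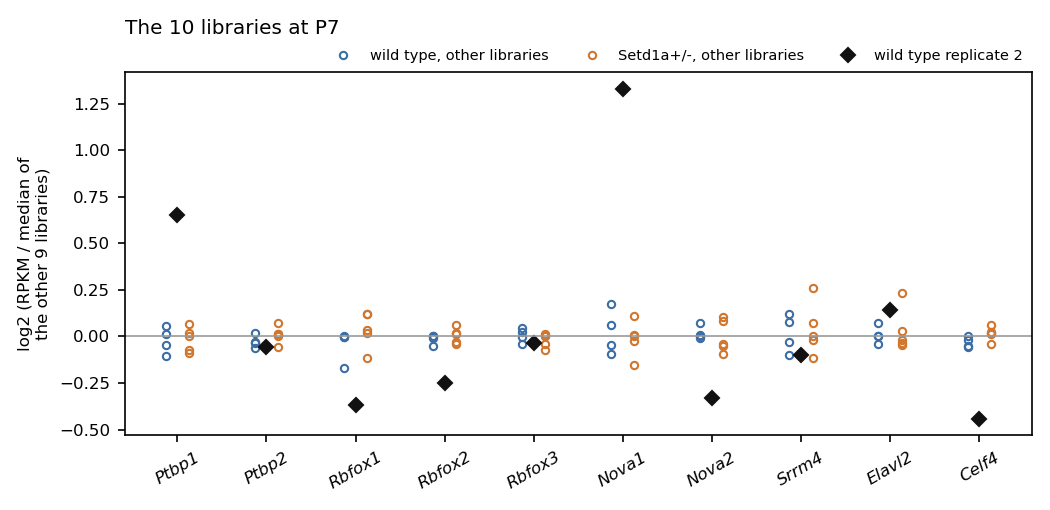
Level of each regulator in the 10 libraries at P7 as the log2 ratio of its RPKM to the median of the 9 libraries other than wild-type replicate 2 (vertical axis), with circles for the other wild-type (blue) and Setd1a+/- (orange) libraries and a black diamond for wild-type replicate 2. The diamond lies above all circles for Ptbp1 and Nova1 and below all circles for Rbfox1, Rbfox2, Nova2 and Celf4.

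Related splicing factors were counted in the same fits. Of 22 paralogues and other tissue-enriched splicing regulators 21 were tested, Esrp1 having too few counts. In the first 3 wild-type steps 2, 4 and 4 of them rose (31.8%, 33.9% and 32.6% of all tested genes did) and 12, 11 and 9 fell (34.1%, 33.4% and 34.3% of all), with median log2 fold changes of -0.31, -0.32 and -0.04. The muscleblind gene Mbnl2, whose protein favours adult isoforms, rose by 1.18 (SE 0.10) from E18 to P7 and by 1.92 (SE 0.10) from P7 to P35, and was at 2.14 ± 0.21 RPKM at E14 and 19.8 ± 1.3 RPKM at P70. Mbnl1 rose by 1.21 (SE 0.07) from P7 to P35. Rbm38 fell by 1.33 (SE 0.15) and then by 1.57 (SE 0.16) in the first 2 steps, and Rbm20 by 1.07 (SE 0.24) in the first. Mbnl3, at 0.31 RPKM at E14, had -1.98, -1.24 and -2.03. Its step from E18 to P7 lost its call without any 1 of 5 wild-type libraries (-1.01 to -1.10), and that from P7 to P35 was -0.87 (adjusted p = 0.28) without P7 wild-type replicate 2.

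The general splicing factors mostly fell, in steps where 34.1%, 33.4% and 34.3% of all tested genes fell. Of 13 SR proteins 12, 11 and 10 fell and 1 rose in each of the first 3 wild-type steps, with medians of -0.47, -0.45 and -0.37. The exception from E14 to E18 was Srsf12, which rose by 0.88 (SE 0.09) and fell by 0.89 (SE 0.08) from P7 to P35. Tra2a fell by 0.71 and Srsf6 by 0.70 in the first step, Srsf7 by 0.80, Tra2b by 0.69 and Srsf3 by 0.67 from E18 to P7, and Srsf3 by 0.78 and Tra2b by 0.75 from P7 to P35. Of 26 hnRNP proteins, a family to which Ptbp1 belongs, 25, 25 and 18 fell and 1, 0 and 1 rose, with medians of -0.46, -0.59 and -0.31. Hnrnpa1 went from 462 ± 10.5 RPKM at E14 to 73.4 ± 4.1 RPKM at P70, and fell by 1.11 from E18 to P7 and by 0.99 from P7 to P35. Hnrnph3 fell by 0.75 and 1.21 in the first 2 steps, Hnrnpm by 0.75 in the first, Hnrnpa0 by 1.15 in the second, and Hnrnpab by 1.07 and Pcbp4 by 0.94 from P7 to P35, while Pcbp3 rose by 0.75 in the first. Dlg4, which encodes PSD-95 and has an exon that the Ptbp proteins repress, rose by 0.72 from E18 to P7 and by 0.70 from P7 to P35 (SE 0.13 each), and its step from E14 to E18 was 0.23 (adjusted p = 0.12). In the genotype tests 0 genes of these lists were called.

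Genes of the most similar course were found by Pearson's r of mean log2 CPM over the 10 groups of age and genotype, as a description. Ptbp1 was nearest to Ctdp1, Smo and Mcm2 and Ptbp2 to Gtf3c4, Ehmt1 and Ubxn7. Rbfox1 was nearest to Dlgap1, Kcnj12 and Dclk3, Rbfox3 to Acsbg1, Sult4a1 and Itpka, Rbfox2 to Ctu1, St7 and Plod3, and Celf4 to Chrm2, Atp8a1 and Dctn3. Elavl2 was nearest to Mastl, Smc6 and Rae1, Nova2 to Asxl3, Ypel1 and Zbtb10, and Nova1 to Gm49527, Hscb and Ufl1. For Nova1 r was between 0.96 and 0.97, and for the others it was 0.996 or higher. The 10 group means share the course of age, which many genes follow, and of the 30 nearest genes of all 10 regulators 6 were also among the nearest 3 over the 50 single libraries and 0 by Spearman's rho over the group means. Between the regulators themselves, Ptbp2 and Srrm4 had r = 0.9965 over the 10 group means and Rbfox3 and Srrm4 had r = -0.99.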

How the data were processed

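The authors deposited 1 table per library of raw read counts per gene. By the study's methods and the submitters' processing notes, reads were trimmed with Trimmomatic, checked with FastQC, aligned to GRCm38 with STAR and counted with featureCounts 1.4.6-p2, without regard to strand and with a read that overlaps several genes counted for each. Genes were named by GENCODE vM21. Duplicate reads had been marked by the authors, and the library totals stand in the report.

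Protein-coding genes were kept by filterByExpr (10 counts, 5 libraries), and their libraries were scaled by TMM. The quasi-likelihood test of edgeR 4.0.16 (R 4.3.3) was run with all libraries in 1 fit and adjusted over all genes. Genotype was tested with age as a covariate, at each age and as an interaction. The standard error is the log2 fold change divided by the square root of F. Ratios of paralogues were tested by exact permutation (100000 resamples within ages when ages were pooled). limma 3.58.1 (voom), DESeq2 1.42.0, other scalings, filters and thresholds, RNA integrity as a covariate and left-out libraries were alternatives. The tests were checked on simulated counts. Other calculations used Python 3.11.15, numpy 2.4.6, pandas 2.3.3 and scipy 1.17.1.

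The regulators and gene lists were chosen with earlier results of these data known. Of each related list, the 3 called genes with the largest change in each of the first 3 wild-type steps were named, and of all genes the 3 of highest r with each regulator, except that those of Srrm4 and a sum over cortex markers are not reported here. GRCm38 positions are those of GENCODE vM21. Replicate numbers of the labels were not treated as pairs of libraries.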

Additional observations from a re-analysis of the deposited data

Results flagged for a closer look

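Of 140 groups of 5 libraries (10 regulators and 4 log2 ratios of paralogues), 16 held a library whose gap to its nearest neighbour was large for the range of the group. Chance alone gives about 1 group in 20. Among them 7 were the same library, wild-type replicate 2 at P7. It held 17.8 RPKM of Ptbp1, where the other 4 wild-type libraries held 10.5 to 11.7, and 11.5 RPKM of Nova1, where they held 4.29 to 5.17. It held 49.3 RPKM of Rbfox2 beside 56.8 to 58.9, 23.5 RPKM of Nova2 beside 29.4 to 31.0 and 47.9 RPKM of Celf4 beside 62.6 to 65.0. Its log2 ratio of Ptbp2 to Ptbp1 was -0.226 beside 0.366 to 0.554, and that of Nova2 to Nova1 was 1.03 beside 2.51 to 2.81.

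The other 9 were spread over libraries. In wild-type cortex Nova1 was at 9.96 RPKM in E14 replicate 1 beside 5.43 to 6.39, and Srrm4 at 7.42 RPKM in P35 replicate 1 beside 6.1 to 6.46. The log2 ratio of Ptbp2 to Ptbp1 was -0.477 in E14 replicate 5, a library with Xist counts, beside -0.224 to -0.14. In Setd1a+/- cortex Rbfox1 was at 72.1 RPKM in P35 replicate 5 beside 70.2 to 70.4, and Nova1 at 7.28 RPKM in P70 replicate 5 beside 5.69 to 5.82. Elavl2 was at 15.6 RPKM in P7 replicate 3 beside 12.8 to 13.5, and at 9.85 RPKM in P70 replicate 1 beside 9.04 to 9.25. The log2 ratio of Ptbp2 to Ptbp1 was 0.627 in P70 replicate 5 beside 0.269 to 0.356, and that of Nova2 to Nova1 was 2.92 in P7 replicate 5 beside 2.59 to 2.69.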

How the results depend on the processing

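Under 12 alternatives and with each of 50 libraries left out in turn, of 9300 values of single regulators 9154 kept their sign and their side of the threshold, 17 lost a call, and 10 gained one with the same sign. The sign changed in 119 values, 0 of them called with all libraries and 1 called under the alternative. With 1 library left out, the regulators called were 0 in every genotype test. In the wild-type steps they were 7 to 7, 8 to 8, 8 to 9 and 0 to 0. In the Setd1a+/- steps they were 7 to 9, 7 to 8, 9 to 9 and 0 to 0. Of the ratios, 7 to 8 were called by age and 0 to 0 by genotype. A lone ratio at a single age could not pass the adjustment by genotype. Without the 3 libraries in doubt 2 regulators were called between genotypes at E14, Rbfox2 and Celf4. Nova1 reversed from E18 to P7 in wild-type cortex, from 0.05 to -0.35 (SE 0.16, adjusted p = 0.048). The paralogue ratios called by age went from 7 to 4 without the 2 libraries with Xist counts and to 3 without all 3, where the smallest p that the fewer libraries allow is larger. The replicate numbers were not treated as pairs. Of 25 correlations of same-numbered deviations 9 were over 0.1, and 7 were the highest of their library, which cannot decide whether the numbers pair the libraries. The replicate block left the regulators called between genotypes at 0 in each test.

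Counts over all genes moved more. At E14 21 genes became 114 with DESeq2, 3 with library size scaling, 2 at 0.01, 9 with at least 10 CPM, 11 with all annotated genes, 795 without the 2 libraries with Xist counts and 1164 without all 3. At E18 18 became 111 with DESeq2, 10 with voom, 37 with the replicate block, 1 with RNA integrity, 7 with at least 10 CPM, 3 at 0.01, 77 without the 2 libraries with Xist counts, and 1.17% of all tested genes (from 0.11%) without all 3. At P7 120 became 16 with voom, 20 with the replicate block, 68 with at least 10 CPM, 20 at 0.01 and 9 without the 3 libraries. At P70 38 became 77 with DESeq2 and 6 at 0.01, at P35 0 became 11 with DESeq2, the interaction went from 0 to 21 with DESeq2, 3 with the replicate block, 13 without the 2 libraries with Xist counts and 48 without all 3, and 723 with age as a covariate became 406 at 0.01. From P35 to P70 173 genes in wild-type cortex became 41 to 299, and 487 in Setd1a+/- cortex became 148 to 798. With 1 library left out the counts were 1 to 748 at E14, 7 to 150 at E18, 7 to 212 at P7, 0 to 5 at P35, 7 to 92 at P70, 0 to 5 in the interaction, 638 to 789 with age as a covariate, and 46 to 277 (wild-type) and 190 to 1030 (Setd1a+/-) from P35 to P70.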
